A study of Mus musculus with 47 samples.

Results

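The comparison described here sets gastrocnemius muscle of tumour-bearing mice treated with 3P10, an antibody that blocks the GDF15 receptor GFRAL, against gastrocnemius muscle of mice without a tumour, and asks how much of the muscle transcript profile seen with a tumour was still measurable under that blockade. The libraries were chosen by their titles, which gave 5 libraries labelled 3P10 and 5 labelled NTB, so 10 of the 47 libraries of the series. The series also covers white and brown fat. The 5 muscle libraries labelled IgG1 were fitted with them, which makes 15 muscle libraries, and their values are set beside those of the 3P10 group.

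All mice were C57Bl6, and tissue was taken on day 21. The 3P10 mice carried tumours of HT1080, a human fibrosarcoma cell line, and received 3P10 at 3 mg/kg every week, starting on the day the tumour cells were given. The IgG1 mice carried the same tumours and received a control antibody at the same dose and on the same days. The NTB mice carried no tumour, and their labels give neither an antibody nor a dose, so the tumour and the antibody cannot be told apart in either comparison with NTB. The labels describe replicates as separate samples and say nothing more about them, so p-values measure the spread between these samples. The labels do not give the immune status of the mice that carried the human cells.

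GDF15 is a circulating stress factor that many tumours secrete. It acts on GFRAL, a receptor made in the hindbrain, which signals through the kinase RET and lowers food intake and body weight. Skeletal muscle is not known as a place where GFRAL is made. Muscle loses mass when food intake falls, when glucocorticoids are high or when inflammatory cytokines act on it, and the transcripts known from these states are described in turn. Gfral had 0 reads in each of the 15 muscle libraries, which allows up to 0.0838 to 0.143 CPM per library (counts per M reads of a library total scaled by TMM, with 3 counts as the limit that a count of 0 allows). Gdf15 had 19 reads over the 5 3P10 libraries, 13 over the 5 IgG1 libraries and 14 over the 5 NTB libraries, too few to be tested.

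The 15 libraries held 24.8 to 33.5 M counted reads, with a median of 28.3. The first component of the log CPM values, with 42.2% of the variance, did not follow the groups. It parted 4 libraries, namely 3P10 replicate 2, IgG1 replicates 2 and 4 and NTB replicate 3, which stood at 51.7 to 57.6 while the other 11 stood at -29.3 to -2.71. Those 4 are the muscle libraries whose titles carry a bracketed number of 14 or higher. What the number marks is not stated in the labels. Summed CPM of the cytosolic ribosomal protein genes ran from 10080 to 12750 in these 4 libraries and from 4484 to 6063 in the rest. On the second component, with 16.6% of the variance, the 4 low-numbered 3P10 libraries stood at -5.46 to 1.06, between the 3 low-numbered IgG1 libraries at -29.1 to -6.37 and the 4 low-numbered NTB libraries at 6.41 to 19.1.

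**Figure D1:**
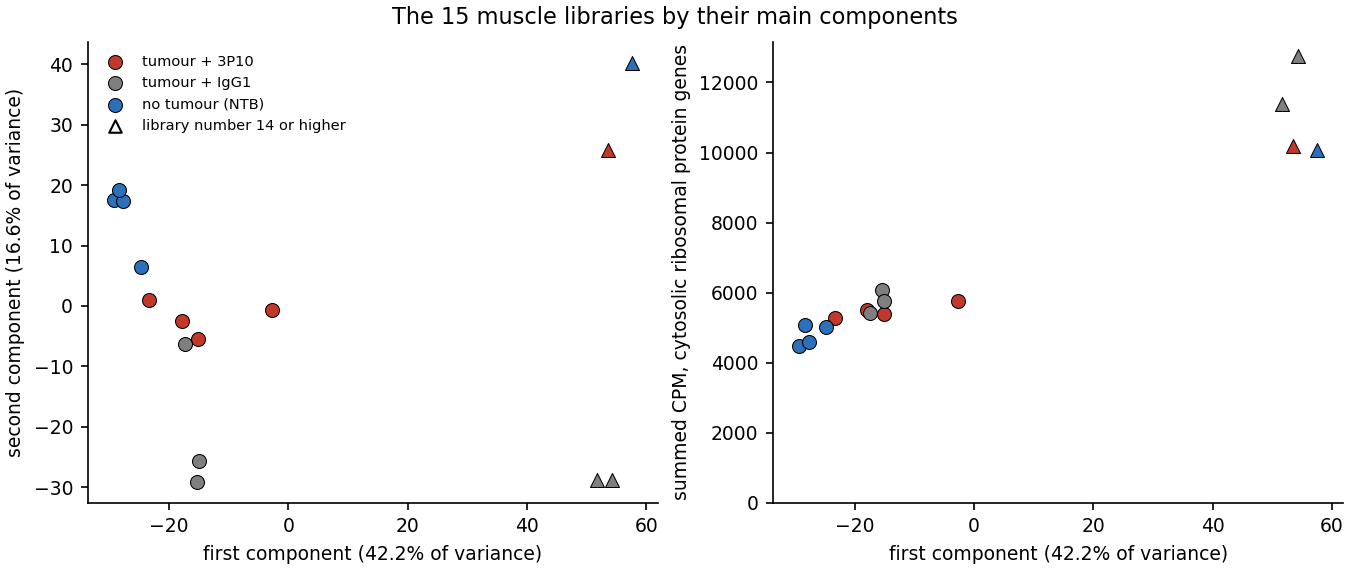
The 15 muscle libraries on their first 2 components (left), and the summed CPM of cytosolic ribosomal protein genes against the first component (right); colours give the group and triangles the 4 libraries numbered 14 or higher. The 4 triangles, from all 3 groups, stand apart at 51.7 to 57.6 on the first component and hold 10080 to 12750 CPM of ribosomal protein transcripts.

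Between muscle of 3P10-treated, tumour-bearing mice and muscle of mice without a tumour, most collagen and tendon transcripts had lower estimates, Stat3 had a higher one, and none of the wasting, energy and muscle fibre genes of the lists described below was called by edgeR. None of these differences passed edgeR's correction across all genes in the 15-library fit without a library-number term. In the fit of all 15 libraries, 0 of 13283 tested genes passed an adjusted p under 0.05 (0%, edgeR quasi-likelihood test with Benjamini-Hochberg adjustment, smallest adjusted p = 0.315). At an unadjusted p under 0.05 there were 163 genes higher in 3P10 than in NTB (1.23% of those tested) and 400 lower (3.01%). DESeq2 on the same libraries called 15 genes, with 633 at an unadjusted p under 0.05. The same edgeR fit called 744 genes in IgG1 against NTB (5.6%), 356 higher and 388 lower, and 28 genes in 3P10 against IgG1 (0.211%), 12 higher and 16 lower. With a term for library number 14 or higher, introduced below, 2455 genes (18.5%) were called between IgG1 and NTB, and 668 (5.03%) between 3P10 and IgG1, 338 of them higher in 3P10 and 330 lower. Values of these 2 comparisons are from the fit without the term unless stated. The 3 comparisons share libraries, so their values are given side by side and no overlap between them is counted.

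Effect bounds were taken from the 95% interval of each log2 fold change. For 11054 genes, 83.2% of those tested, the whole interval of 3P10 against NTB lay between -1 and 1, that is, within a 2-fold difference either way. The median gene had an interval of 0.447 on either side of its estimate, and the median log2 fold change was -0.0033. A gene outside the bounded set may have differed by 2-fold or more. Where its interval crosses a 2-fold limit, the data do not say whether it did. For some genes the whole interval lay beyond 2-fold, among them Col11a1 (-3.12 to -1.105), Col26a1 (-3.03 to -1.17) and Cxcl13 (1.17 to 4.15). None of these passed the adjusted p in this fit. For reference, the same fit bounded 9796 genes (73.75%) when IgG1 muscle was set against NTB muscle. Between the tumour groups it bounded 10596 (79.77%).

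When the term for library number was added, the median standard error (SE) was 0.141, against 0.211 in the fit without it. The 15-library fit with the term called 5 genes in 3P10 against NTB (0.0376%) and bounded 11825 genes within 2-fold. Stat3 rose, and Col11a1, Scg3, Tnmd and Dpysl3 fell. Single libraries decided this number, which was 61 without IgG1 replicate 1, 17 without 3P10 replicate 2 and 11 without IgG1 replicate 2. With IgG1 replicate 4 left out there were 3 calls, and 1 without 3P10 replicate 1 or NTB replicate 5. There were 0 calls without any 1 of 3P10 replicates 4 and 5, IgG1 replicate 5 and NTB replicates 1 to 4.

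A fit of the 10 3P10 and NTB libraries with the same term called 88 genes, of which 5 rose (0.0383%) and 83 fell (0.636%). In it the term rests on 1 library per group, 3P10 replicate 2 and NTB replicate 3, and without the term the 10-library fit called 0 genes, with 710 at an unadjusted p under 0.05. The 83 that fell had log2 fold changes of -2.10 to -0.42 with a median of -0.70, and in 46 of them every 3P10 library lay below every NTB library. Over all 13283 genes, groups without overlap were found for 1.17% with 3P10 lower and for 0.361% with 3P10 higher. The number of calls was 47, 32 and 54 without 3P10 replicates 1, 4 and 5, and 33, 26 and 54 without NTB replicates 1, 2 and 4. The 5 genes that rose were Stat3, Atp9a, a phospholipid-transporting ATPase, Wdr45, an autophagy protein, Csf2rb2, a subunit of the IL-3 receptor, and Tmem100, a membrane protein of endothelium. The last 4 were named after their values were seen.

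Stat3, the gene called higher once the term was added, encodes the transcription factor that carries the signal of IL-6 family cytokines. In 3P10 muscle it stood at 117, 77.1, 93.9, 128 and 91.0 CPM in replicates 1 to 5. In IgG1 muscle it stood at 74.9, 92.8, 100.4, 70.3 and 105 CPM, and in NTB muscle at 62.2, 63.0, 40.5, 63.5 and 61.9 CPM. Every 3P10 and every IgG1 library lay above every NTB library, while the 3P10 and IgG1 values overlapped. The log2 fold change of 3P10 against NTB was 0.80 (SE 0.17, 95% interval 0.44 to 1.16), a 1.74-fold difference with bounds of 1.35 and 2.24. Its edgeR adjusted p was 0.426 in the 15-library fit, 0.0415 with the library-number term and 0.00707 in the 10-library fit with the term. IgG1 against NTB gave 0.61 (SE 0.17, adjusted p = 0.0496), and 3P10 against IgG1 gave 0.20 (SE 0.17, adjusted p = 0.769).

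Socs3, a feedback inhibitor of cytokine signalling that STAT3 is known to induce, was looked at after its values were seen. It stood at 7.55, 6.02, 3.39, 6.29 and 2.96 CPM in 3P10 muscle, at 7.47, 8.71, 6.51, 7.35 and 6.02 CPM in IgG1 muscle, and at 2.52, 3.32, 1.72, 3.60 and 2.20 CPM in NTB muscle. Replicates 3 and 5 of the 3P10 group reached into the NTB range, and the IgG1 libraries did not. The log2 fold change of 3P10 against NTB was 0.96 (95% interval 0.42 to 1.51), which did not pass (edgeR adjusted p = 0.596, and 0.166 with the term). In IgG1 against NTB it rose by 1.42 (adjusted p = 0.00575).

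Promoters of this pair, and of the collagen gene Col1a2 described further on, are printed because Stat3 and Col1a2 had the smallest p-values of the 10-library fit, 1 in each direction, and Socs3 is a known target of STAT3. They are the 250 bases before the annotated start of each gene in RefSeq on build GRCm38.p6, written 5′ to 3′ on the gene's own strand. Capitals mark a match to TTCNNNGAA, the core of a STAT binding motif, or to a CCAAT box, CCAAT or its reverse complement ATTGG, searched on both strands.
Stat3 promoter: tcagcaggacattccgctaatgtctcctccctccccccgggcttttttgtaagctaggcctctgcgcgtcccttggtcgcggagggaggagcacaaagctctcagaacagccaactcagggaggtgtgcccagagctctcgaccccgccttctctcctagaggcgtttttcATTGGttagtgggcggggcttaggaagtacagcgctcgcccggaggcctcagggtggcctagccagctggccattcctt
Socs3 promoter: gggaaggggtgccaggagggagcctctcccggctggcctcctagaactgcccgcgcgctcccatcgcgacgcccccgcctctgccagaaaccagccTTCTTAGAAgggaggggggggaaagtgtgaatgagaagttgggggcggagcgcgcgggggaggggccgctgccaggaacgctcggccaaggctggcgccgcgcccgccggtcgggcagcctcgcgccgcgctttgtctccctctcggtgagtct
Col1a2 promoter: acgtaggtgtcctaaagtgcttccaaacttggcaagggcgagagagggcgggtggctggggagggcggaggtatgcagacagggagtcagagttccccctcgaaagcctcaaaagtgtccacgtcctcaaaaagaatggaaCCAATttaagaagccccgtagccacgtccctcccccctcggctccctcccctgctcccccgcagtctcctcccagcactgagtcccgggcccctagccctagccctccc
The Stat3 stretch is chr11:100939541-100939790 on the minus strand, with a CCAAT box at position -79 from the start. The Socs3 stretch is chr11:117969367-117969616 on the minus strand, with the TTCNNNGAA match at position -154. The Col1a2 stretch is chr6:4505368-4505617 on the plus strand, with a CCAAT box at position -109. Of 32851 mouse promoter windows of the same 250 bases, 33.8% held a CCAAT box, so a match to it is common. TTCNNNGAA was held by 7.02% of them. Either is a match of letters, not a site shown to be bound. Promoters were matched for 18 of the 28 matrix genes and 13 of the 17 tested acute phase genes, under 80% of either list, so a search over a whole list would be void.

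**Figure D2:**
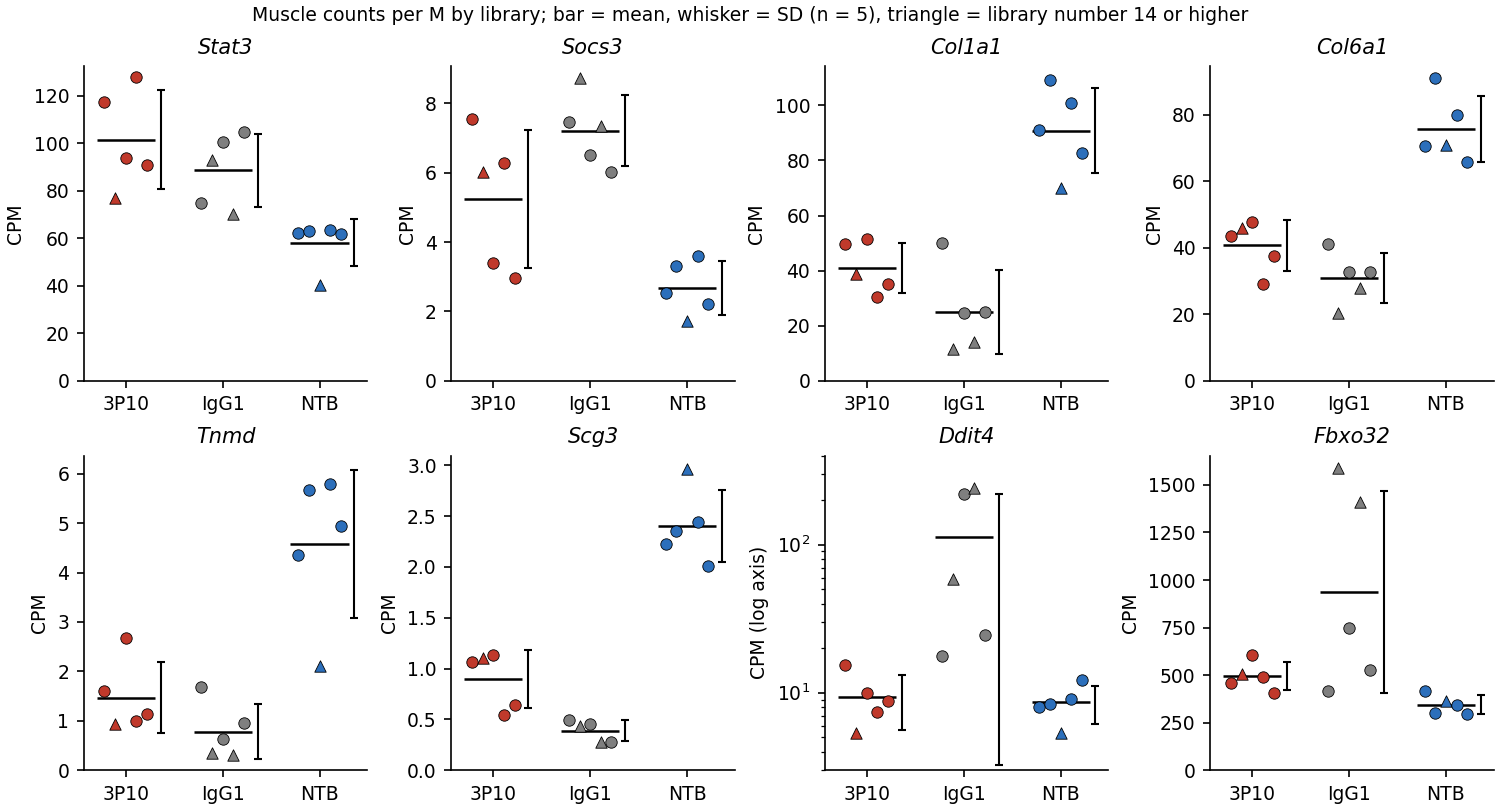
CPM of 8 genes in each of the 15 muscle libraries, in the order 3P10, IgG1 and NTB, with the mean as a bar and the SD as a whisker (5 libraries per group); triangles are libraries numbered 14 or higher, and the Ddit4 axis is logarithmic. Stat3 lies above the NTB range in all 3P10 and IgG1 libraries, Col1a1, Col6a1 and Scg3 lie below it in all of them, and Ddit4 is high in IgG1 alone, with 3P10 at 5.31 to 15.3 CPM and NTB at 5.35 to 12.3 CPM.

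The list of acute phase and cytokine response genes held 23 genes, of which 17 were tested. Of these, 7 were higher in 3P10 than in NTB at an unadjusted p under 0.05, beside 1.23% higher among all genes, and 0 were lower. By edgeR 1 member, Stat3, was called once the term was added. The list's median log2 fold change was 0.55, and 16 of the 17 estimates were above 0. Of the others, C4b, a complement component, gave 0.93 (95% interval 0.35 to 1.52), and S100a9, a calcium-binding protein of neutrophils, gave 2.06 (0.69 to 3.43) at levels of 0.263 to 2.17 CPM in 3P10 and 0.194 to 0.573 CPM in NTB. In IgG1 against NTB the list's median was 0.87 and 6 members rose, beside 5.6% of all genes called in either direction. The cytokine receptor subunit Il6ra rose in IgG1 by 2.45 (adjusted p = 0.00452) and gave 0.99 in 3P10 against NTB, with an interval of 0.10 to 1.88 and 1.39 to 8.32 CPM in 3P10 against 0.812 to 4.18 CPM in NTB.

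Markers of blood cells are given beside this list, and their part in it was not tested. Of 8 neutrophil markers 3 were tested, with a median log2 fold change of 1.2 and summed levels of 1.35 to 4.86 CPM in 3P10, 0.700 to 3.33 CPM in IgG1 and 0.873 to 2.39 CPM in NTB. All 12 macrophage markers were tested, with a median of 0.07 and sums of 66.0 to 114 CPM in 3P10, 73.2 to 95.1 CPM in IgG1 and 61.2 to 114 CPM in NTB. No T and B cell marker had enough reads to be tested (0 of 10), and their sums stayed at 0.301 to 1.37 CPM in 3P10, 0.0766 to 0.429 CPM in IgG1 and 0.271 to 0.387 CPM in NTB, with Ms4a1 at 0. In bulk tissue, fewer cells of a type and less RNA per cell cannot be told apart.

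Cxcl13, a chemokine that attracts B cells, had a wide estimate. It stood at 0.902, 0.926, 0.602, 1.93 and 4.55 CPM in 3P10, at 1.95, 5.48, 1.51, 9.84 and 2.99 CPM in IgG1, and at 0.549, 0.134, 0.0955, 0.140 and 0.464 CPM in NTB. Every 3P10 library lay above every NTB library, at levels near the counting limit in NTB, where 39 reads were counted in all. The log2 fold change of 3P10 against NTB was 2.66 (95% interval 1.17 to 4.15, edgeR adjusted p = 0.592), and 1.94 without 3P10 replicate 5, the highest of the group. DESeq2 called it (adjusted p = 0.03), with a log2 fold change of 2.69, and by edgeR in IgG1 against NTB it rose by 3.93 (adjusted p = 0.00513).

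The MHC class II genes, which present antigen, had a positive median in 3P10 and a negative one in IgG1. All 8 were tested, with a median log2 fold change of 0.54 in 3P10 against NTB. At an unadjusted p under 0.05, 3 of them were higher, beside 1.23% of all genes, and none was called. In IgG1 against NTB the median was -0.39, with none called. H2-Eb1, the beta chain of the class II molecule I-E, stood at 5.57 to 14.2 CPM in 3P10, 3.64 to 5.28 CPM in IgG1 and 4.56 to 8.17 CPM in NTB, so the 3P10 libraries overlapped those of NTB and not those of IgG1. It was called in 3P10 against IgG1 (log2 fold change 1.204, adjusted p = 0.0445) and not in 3P10 against NTB (0.76, adjusted p = 0.166 with the term). Of the 8 genes, 1 was called in 3P10 against IgG1 without the term, beside 0.211% of all genes in either direction. With the term 4 were called, beside 5.03% of all genes, and all were higher.

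Collagens and other extracellular matrix genes, which build the connective tissue sheaths around muscle fibres, were lower in 3P10 muscle than in NTB muscle across most of the list. Of the 28 matrix genes, all tested, 27 had a negative log2 fold change in 3P10 against NTB, with a median of -0.66. At an unadjusted p under 0.05, 20 of them were lower and 0 higher, beside 3.01% lower among all genes, but by edgeR none was called in the 15-library fit with or without the term. With the term and no low-count filter edgeR called 7 of them lower, and DESeq2 called 3 lower without the term and 18 with it. In the 10-library fit with the term 17 fell, beside 0.636% of all genes, and the number was 8 to 17 when each library was left out in turn. In 14 of the 28 every 3P10 library lay below every NTB library, beside 1.17% of all genes. The summed level of the list was 1200 to 1469 CPM in 3P10, 889 to 1516 CPM in IgG1 and 1896 to 2432 CPM in NTB.

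The fibrillar collagens Col1a1 and Col1a2, which encode the chains of type I collagen, and Col3a1 were named after their values were seen. Col1a1 stood at 49.7, 38.7, 51.4, 30.4 and 35 CPM in 3P10, at 50.2, 11.6, 24.7, 14 and 24.9 CPM in IgG1, and at 91.0, 109, 70.0, 101 and 82.8 CPM in NTB. Col1a2 stood at 105, 127, 105, 76.2 and 81.7 CPM in 3P10, at 145, 31.4, 53.3, 45.3 and 54.9 CPM in IgG1, and at 198, 267, 232, 268 and 187 CPM in NTB. All 3P10 libraries lay below all NTB libraries for both genes, and among the IgG1 libraries replicate 1 stood apart at 50.2 and 145 CPM, near or above the top of the 3P10 range. On the log2 scale 3P10 differed from NTB by -1.15 for Col1a1 (95% interval -1.80 to -0.50), and it fell in the 10-library fit with the term (adjusted p = 0.00735). Col1a2 gave -1.22 (-1.89 to -0.55), with an adjusted p of 0.592 in the 15-library fit and 0.00707 in the 10-library fit with the term. Col3a1 gave -1.13 (-2.06 to -0.20). In IgG1 against NTB these 3 fell by 1.86, 1.81 and 1.84 on the log2 scale, with adjusted p of 0.00398, 0.00481 and 0.0264.

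Type VI collagen surrounds the muscle fibre. Col6a1 stood at 43.4, 45.8, 47.7, 29.03 and 37.6 CPM in 3P10, at 41.0, 20.4, 32.7, 27.8 and 32.6 CPM in IgG1, and at 70.7, 91.0, 70.9, 79.9 and 65.6 CPM in NTB. Neither tumour group overlapped NTB. Its log2 fold change in 3P10 against NTB was -0.89 (SE 0.18, 95% interval -1.27 to -0.52, edgeR adjusted p = 0.384, with the term 0.0523 and in the 10-library fit with the term 0.0126). Col6a2 gave -1.01 (-1.45 to -0.56), and Sparc, a collagen-binding glycoprotein, gave -0.65 (-0.95 to -0.35) at 144 to 209 CPM in 3P10, 110.2 to 161 CPM in IgG1 and 231 to 312 CPM in NTB. In IgG1 against NTB these 3 fell by 1.29, 1.68 and 1.04 on the log2 scale. The matrix list had a median of -1.01 in IgG1 against NTB, with 14 members called lower and 1 higher, beside 388 and 356 of all 13283 genes. In 3P10 against IgG1 its median was 0.37, with 0 of 28 called and Col6a1 at 0.40 (edgeR adjusted p = 0.429). At an unadjusted p under 0.05, 10 were higher and 1 lower, beside 640 and 790 of all 13283 genes. With the term 12 were higher and 2 lower at that threshold, beside 1397 and 1553. Col15a1 and Postn, 2 of the 28, were called higher with the term, beside 5.03% of all genes called in either direction.

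Lox, which cross-links collagen, was the member with a positive estimate, at 0.43 (95% interval -0.03 to 0.89), and it rose in IgG1 against NTB by 1.10 (adjusted p = 0.00931). For decorin and thrombospondin 1 the intervals of 3P10 against NTB included 0, with Dcn at -0.30 (-0.61 to 0.02) and Thbs1 at -0.20 (-0.68 to 0.27).

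Tendon genes had the lower median of the 2 connective tissue lists. Of 10 tendon markers, all tested, 7 were lower in 3P10 than in NTB at an unadjusted p under 0.05 (3.01% of all genes) and 0 higher, with a median log2 fold change of -1.34 against -0.0033 for all genes. Their summed level was 16.4 to 39.4 CPM in 3P10, 12.9 to 36.7 CPM in IgG1 and 38.0 to 77.5 CPM in NTB, and none was at 0. Tnmd, a membrane protein of tendon cells, stood at 1.603, 0.926, 2.67, 0.993 and 1.15 CPM in 3P10, at 1.68, 0.345, 0.630, 0.306 and 0.947 CPM in IgG1, and at 4.36, 5.67, 2.10, 5.80 and 4.95 CPM in NTB. The low NTB value was that of replicate 3, numbered 16, and it lay below 3P10 replicate 3. The log2 fold change was -1.65 (SE 0.41) without the term and -1.62 (SE 0.27, edgeR adjusted p = 0.0478) with it.

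Col11a1, a minor fibrillar collagen of cartilage and tendon, stood at 0.968, 0.285, 0.414, 0.451 and 0.391 CPM in 3P10, at 0.383, 0.216, 0.525, 0.0306 and 0.458 CPM in IgG1, and at 1.58, 2.48, 0.764, 3.18 and 2.86 CPM in NTB. It fell with the term, with a log2 fold change of -2.08 (95% interval -2.75 to -1.40, adjusted p = 0.0415). Kera, a small proteoglycan, gave -1.72 (-2.86 to -0.58), and Chad, a cartilage matrix protein, gave -1.02 (-1.96 to -0.07), and in IgG1 against NTB both fell, by 3.10 and 2.30. Scx, a transcription factor of tendon cells, gave 0.05 (-0.51 to 0.60). The gastrocnemius joins the Achilles tendon, and how much tendon each piece of muscle held is not stated. Whether the share of tendon in the pieces had a part in the matrix result was not tested.

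Markers of the other cell types of connective tissue, vessel and nerve also had negative medians, nearer to 0 than the tendon list. Of 10 markers of fibroblasts and fibro-adipogenic progenitors, the connective tissue cells of muscle, 3 were lower at an unadjusted p under 0.05, beside 3.01% of all genes. Their median was -0.38, with 9 of the 10 bounded within 2-fold. Their sums were 560 to 746 CPM in 3P10, 553 to 782 CPM in IgG1 and 637 to 1009 CPM in NTB. Pdgfra, which defines the progenitors, gave -0.24 (-0.51 to 0.03). The 8 satellite cell markers, which mark the stem cells of muscle, had negative estimates throughout and a median of -0.34. At an unadjusted p under 0.05, 2 were lower, beside 3.01% of all genes. Their sums in both tumour groups lay below those of NTB, at 56.3 to 69.9 CPM in 3P10, 53.2 to 64.1 CPM in IgG1 and 71.7 to 80.3 CPM in NTB. The 9 markers of Schwann cells and nerve had a median of -0.54, 8 of them negative, with sums of 109 to 282 CPM in 3P10, 115 to 308 CPM in IgG1 and 135 to 262 CPM in NTB. All 8 markers of smooth muscle and pericytes were negative, with a median of -0.33 and sums of 99.7 to 195 CPM in 3P10, 89.8 to 204 CPM in IgG1 and 105 to 254 CPM in NTB. All 10 endothelial markers were negative, with a median of -0.19 and sums of 161 to 271 CPM in 3P10, 111 to 247 CPM in IgG1 and 154 to 357 CPM in NTB. In these last 3 lists 0 markers were lower at an unadjusted p under 0.05 without the term, and the 3P10 and NTB sums overlapped. With the term 2 nerve, 3 smooth muscle and 3 endothelial markers were lower at that threshold, beside 776 of all 13283 genes. The 10-library fit with the term gave 2, 6 and 4, beside 1047 of 13051, with none called. For fibroblast markers these fits gave 5 and 7, with 2 called lower in the 10-library fit, beside 0.636% of all genes. For satellite cell markers they gave 3 and 4, with none called. The part of any of these cell types in the matrix result was not tested.

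Of the 20 cell cycle genes 16 were tested, and 5 were lower in 3P10 than in NTB at an unadjusted p under 0.05, namely Mki67, Ccna2, Top2a, Ccnd1 and Cdk1, with 0 higher, beside 3.01% lower among all genes. The list's median was -0.22, and 9 of 16 members were bounded within 2-fold. Ccnd1, cyclin D1, stood at 2.67 to 3.44 CPM in 3P10, 1.32 to 2.49 CPM in IgG1 and 2.32 to 9.54 CPM in NTB, with NTB replicate 5 low among the others. Its log2 fold change was -1.05 (-1.70 to -0.40), and in IgG1 against NTB it fell by 1.88 (adjusted p = 0.00406). Ccnf, cyclin F, a lightly counted gene of 100 reads over the 3P10 libraries and 176 over the NTB libraries, gave -0.996 (-1.43 to -0.56), with no overlap between the 2 groups.

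Scg3, a protein of secretory granules, had the smallest p-value of all genes in the 15-library fit. It stood at 1.07, 1.10, 1.13, 0.542 and 0.642 CPM in 3P10, at 0.498, 0.431, 0.455, 0.276 and 0.275 CPM in IgG1, and at 2.23, 2.35, 2.96, 2.45 and 2.01 CPM in NTB. The 3 groups did not overlap, with 3P10 between IgG1 and NTB. In 3P10 against NTB the log2 fold change was -1.42 (SE 0.24, 95% interval -1.94 to -0.91, edgeR adjusted p = 0.315), and it fell with the term (adjusted p = 0.0438). IgG1 against NTB gave -2.63 (adjusted p = 0.000187), and 3P10 against IgG1 gave 1.21 (adjusted p = 0.0783, and 0.0183 with the term).

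Dpysl3, a cytoskeletal protein best known from growing axons, stood at 9.62, 11.9, 9.29, 7.94 and 8.69 CPM in 3P10, at 8.35, 6.82, 7.07, 8.06 and 8.25 CPM in IgG1, and at 14.6, 14.9, 15.2, 15.02 and 13.3 CPM in NTB. The NTB libraries lay close together and above both tumour groups. The log2 fold change was -0.62 (-0.88 to -0.37), and it fell with the term (adjusted p = 0.0478). Tpm4, a cytoskeletal tropomyosin, gave -0.53 (-0.76 to -0.30) at 16.5 to 20.8 CPM in 3P10, 12.4 to 15.5 CPM in IgG1 and 23.1 to 29.6 CPM in NTB, again with 3 groups that did not overlap. Col26a1, a collagen counted in 21 reads over the 3P10 libraries and 81 over the NTB libraries, gave -2.10 (-3.03 to -1.17).

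Tpsab1, a tryptase of mast cells, differed from the other genes with small p-values in that IgG1 muscle lay at the NTB level. It stood at 1.14, 0.819, 1.43, 0.662 and 1.09 CPM in 3P10, at 1.65, 2.72, 2.03, 3.06 and 2.66 CPM in IgG1, and at 3.13, 1.85, 3.06, 1.47 and 2.28 CPM in NTB. The 3P10 libraries lay below every other library. 3P10 against NTB gave a log2 fold change of -1.20 (-1.76 to -0.63, edgeR adjusted p = 0.444), that of 3P10 against IgG1 was -1.24 (adjusted p = 0.0687, and 0.0183 with the term), and that of IgG1 against NTB was 0.05 (-0.49 to 0.58). Mast cell tryptases are encoded by close copies, and reads may have been split between them, so the level of this gene is uncertain.

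**Figure D3:**
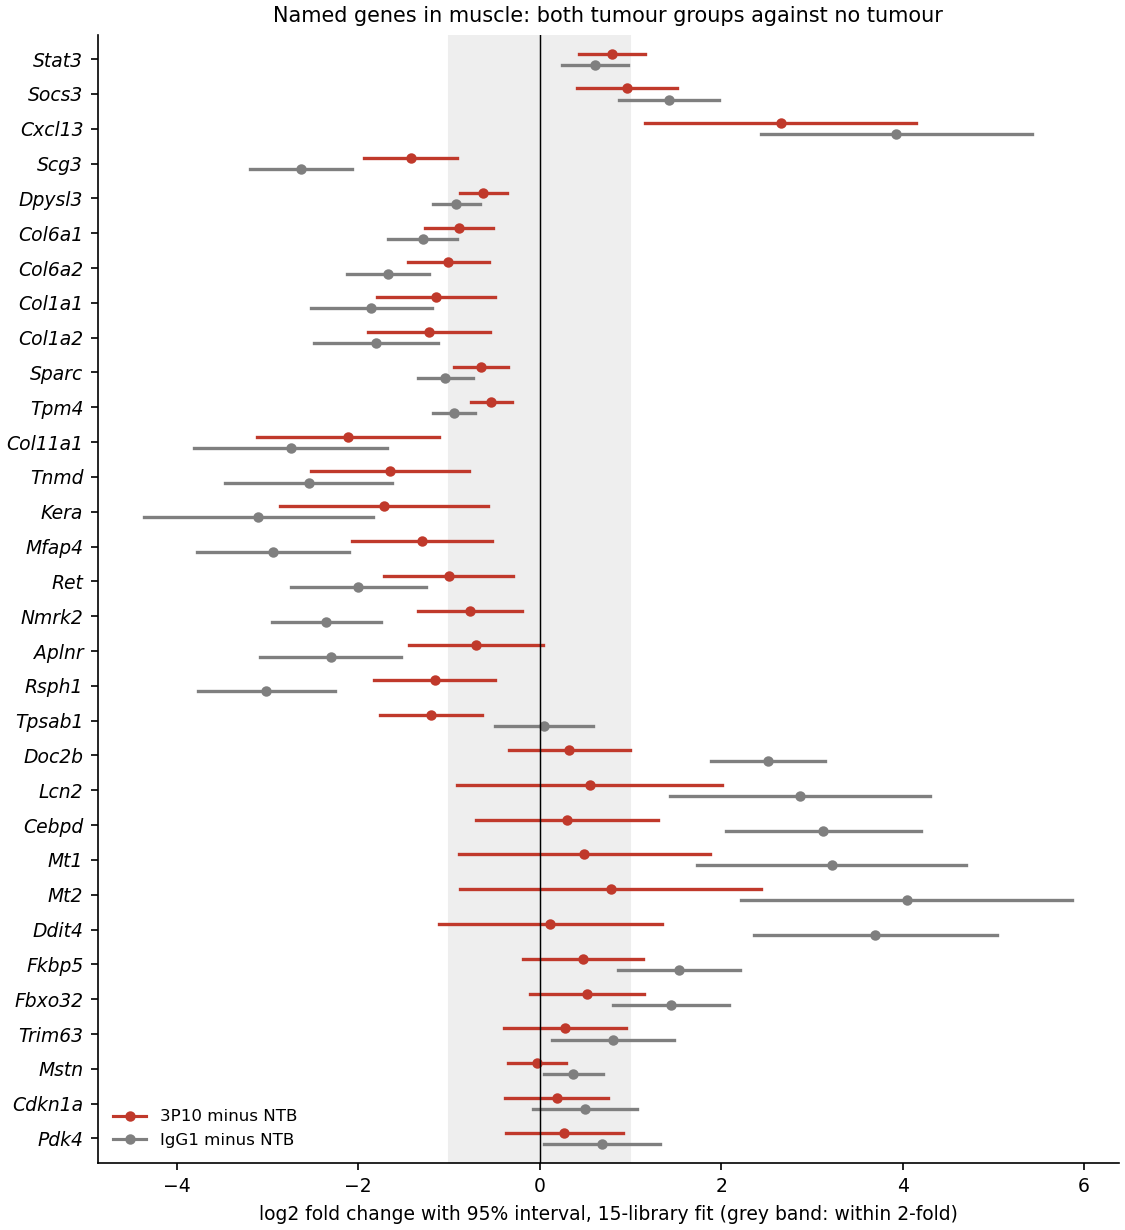
Log2 fold change with its 95% interval for 32 named genes, 3P10 minus NTB in red and IgG1 minus NTB in grey, from the fit of 15 libraries; the grey band marks a difference of under 2-fold either way. Stat3, the collagens and Tnmd lie on the same side of 0 in both, while Ddit4, Cebpd and Doc2b reach 3.70, 3.13 and 2.52 in IgG1 and lie at 0.12, 0.30 and 0.32 in 3P10.

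The transcripts that rose most in IgG1 muscle were chosen for that rise against the same NTB libraries, and their values in 3P10 are a description, with bounds that depend on the gene. Ddit4, or REDD1, is a brake on mTORC1 that glucocorticoids and fasting induce. It stood at 15.3, 5.31, 9.97, 7.43 and 8.80 CPM in 3P10, at 17.8, 58.2, 220.2, 239.8 and 24.7 CPM in IgG1, and at 8.01, 8.42, 5.35, 9.05 and 12.3 CPM in NTB. The 3P10 and NTB ranges overlapped almost in full and every IgG1 library lay above both. Set against NTB, 3P10 gave a log2 fold change of 0.12, with a 95% interval of -1.11 to 1.35, so a difference of 2-fold either way is inside the bounds of that fit. The 10-library fit with the term, which leaves out the IgG1 libraries, gave 0.11 with an interval of -0.29 to 0.51, within 2-fold. IgG1 against NTB gave 3.70 (adjusted p = 0.00408) and 3P10 against IgG1 gave -3.58 (adjusted p = 0.0294).

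Cebpd, a transcription factor of the acute phase and glucocorticoid response, stood at 28.9, 15.6, 14.03, 13.99 and 8.97 CPM in 3P10, at 84.6, 168, 88.9, 201 and 32.5 CPM in IgG1, and at 8.04, 9.87, 31.04, 7.86 and 9.40 CPM in NTB. NTB replicate 3 reached close to the lowest IgG1 library. On the log2 scale 3P10 differed from NTB by 0.30 (-0.70 to 1.31), and 3P10 against IgG1 gave -2.82 (adjusted p = 0.0294). Doc2b, a calcium sensor of vesicle release, gave the tightest of these bounds, 0.32 (-0.34 to 0.99), against a rise of 2.52 in IgG1, and it fell in 3P10 against IgG1 by 2.19 (adjusted p = 0.00464).

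The metallothioneins Mt1 and Mt2, which bind zinc, gave 0.49 (-0.89 to 1.87) and 0.78 (-0.88 to 2.44) in 3P10 against NTB, against rises of 3.216 and 4.04 in IgG1. Lcn2, an iron-carrier-binding protein of the acute phase, gave 0.55 (-0.91 to 2.01), against a rise of 2.87 in IgG1. 8430408G22Rik stood at 25.1, 10.1, 5.98, 7.37 and 5.56 CPM in 3P10, at 7.08, 101.6, 24.3, 45.9 and 23.1 CPM in IgG1, and at 5.13, 2.79, 7.498, 6.08 and 4.41 CPM in NTB, and it gave 1.07 (-0.14 to 2.27) in 3P10 against NTB. For these 4 genes the intervals reach past 2-fold on the higher side.

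Across the glucocorticoid response list, 22 of 23 genes were tested. At an unadjusted p under 0.05, 1, the transaminase Gpt2, was higher in 3P10 than in NTB (1.23% of all genes), with 0 lower and none called. With the term 4 were higher at that threshold, beside 395 of all 13283 genes. In the 10-library fit with the term 5 were higher and 1 lower, beside 657 and 1047 of 13051. The list's median log2 fold change was 0.32 in 3P10 against NTB, with 12 members bounded within 2-fold. In IgG1 against NTB it was 0.91, with 13 members called higher, beside 5.6% of all genes called in either direction. In 3P10 against IgG1 4 members were called lower, namely Ddit4, Cebpd, Sgk1 and Per1, and 11 with the term. Over all genes 0.211% were called in either direction, and 5.03% with the term. Sgk1, a kinase of the AGC family that glucocorticoids induce, stood at 78.2 to 180.2 CPM in 3P10, 232 to 358 CPM in IgG1 and 97.6 to 126 CPM in NTB, with a log2 fold change of 0.18 (-0.22 to 0.57) in 3P10 against NTB. Fkbp5, a glucocorticoid-induced chaperone partner, gave 0.47 (-0.19 to 1.13), against a rise of 1.54 in IgG1.

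The muscle wasting genes showed no called difference. Fbxo32, which encodes the ubiquitin ligase atrogin-1, stood at 457, 507, 605, 490.2 and 405 CPM in 3P10, at 417, 1590, 746, 1408 and 525 CPM in IgG1, and at 417, 302, 362, 342 and 296 CPM in NTB. The 3P10 and NTB ranges met at 405 and 417 CPM, and IgG1 replicate 1 lay as low as the highest NTB library. In 3P10 against NTB the log2 fold change was 0.52 (-0.11 to 1.15), a 1.43-fold estimate with bounds of 0.926 and 2.22, against a rise of 1.45 in IgG1 (adjusted p = 0.0125). With the term the interval of 3P10 against NTB was 0.048 to 0.996 (edgeR adjusted p = 0.494). In the 10-library fit with the term it was 0.26 to 0.78 (edgeR adjusted p = 0.0721). Trim63, the ligase MuRF1, gave 0.28 (-0.39 to 0.95). Mstn, the growth inhibitor myostatin, gave -0.03 (-0.35 to 0.29), which bounds it at 0.784 to 1.22-fold.

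Of the 17 atrophy ligases and FoxO targets, all tested, 0 passed an unadjusted p under 0.05 in 3P10 against NTB without the term. With the term 3 were higher at that threshold, beside 395 of all 13283 genes. In the 10-library fit with the term 5 were higher, beside 657 of 13051. In both fits 0 were lower, and none was called. Without the term the 17 estimates ran from -0.15 to 0.52 with a median of 0.05. Of these 13 (76.5%) were bounded within 2-fold, beside 83.2% of all genes. In IgG1 against NTB the median was 0.29 and 3 members rose, beside 356 of all 13283 genes. The mTOR brakes and growth arrest genes, 16 tested, had a median of 0.14, with 10 (62.5%) bounded. At an unadjusted p under 0.05, 1 was higher (1.23% of all genes), with 0 lower. With the term 3 were higher, beside 395 of all 13283 genes. In the 10-library fit with the term 5 were higher, beside 657 of 13051. Again 0 were lower in both. In IgG1 against NTB the list's median was 0.49 and 6 were called higher, beside 356 of all 13283 genes. Cdkn1a, the cell cycle inhibitor p21, gave 0.19 (-0.39 to 0.76), and Pdk4, which shuts pyruvate out of the mitochondrion in fasting, gave 0.27 (-0.37 to 0.91).

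Among all genes 83.2% were bounded within 2-fold, and the lists are read beside that share. All 23 autophagy and lysosome genes were bounded within 2-fold, with a median of 0.17 and no estimate past 0.41. Of their estimates 22 were positive, and 2 genes were higher at an unadjusted p under 0.05 (1.23% of all genes). With the term 6 were higher, beside 395 of all 13283 genes. In the 10-library fit with the term 9 were higher, beside 657 of 13051. In each of these fits 0 were lower, and none was called. Of 34 proteasome subunit genes 33 (97.1%) were bounded, with a median of 0.10 and 0 at an unadjusted p under 0.05. With the term 2 of them were higher at that threshold, beside 395 of all 13283 genes. In the 10-library fit with the term 8 of them were higher, beside 657 of 13051. Of 47 oxidative phosphorylation genes 42 (89.4%) were bounded, with a median of -0.09 and 0 at an unadjusted p under 0.05. The fast-fibre contractile genes had a median of -0.01, with 11 of 13 (84.6%) bounded. The 14 markers of the muscle fibre itself were all bounded, with a median of -0.02 and sums of 173300 to 251500 CPM in 3P10, 190200 to 264300 CPM in IgG1 and 169500 to 269500 CPM in NTB.

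**Figure D4:**
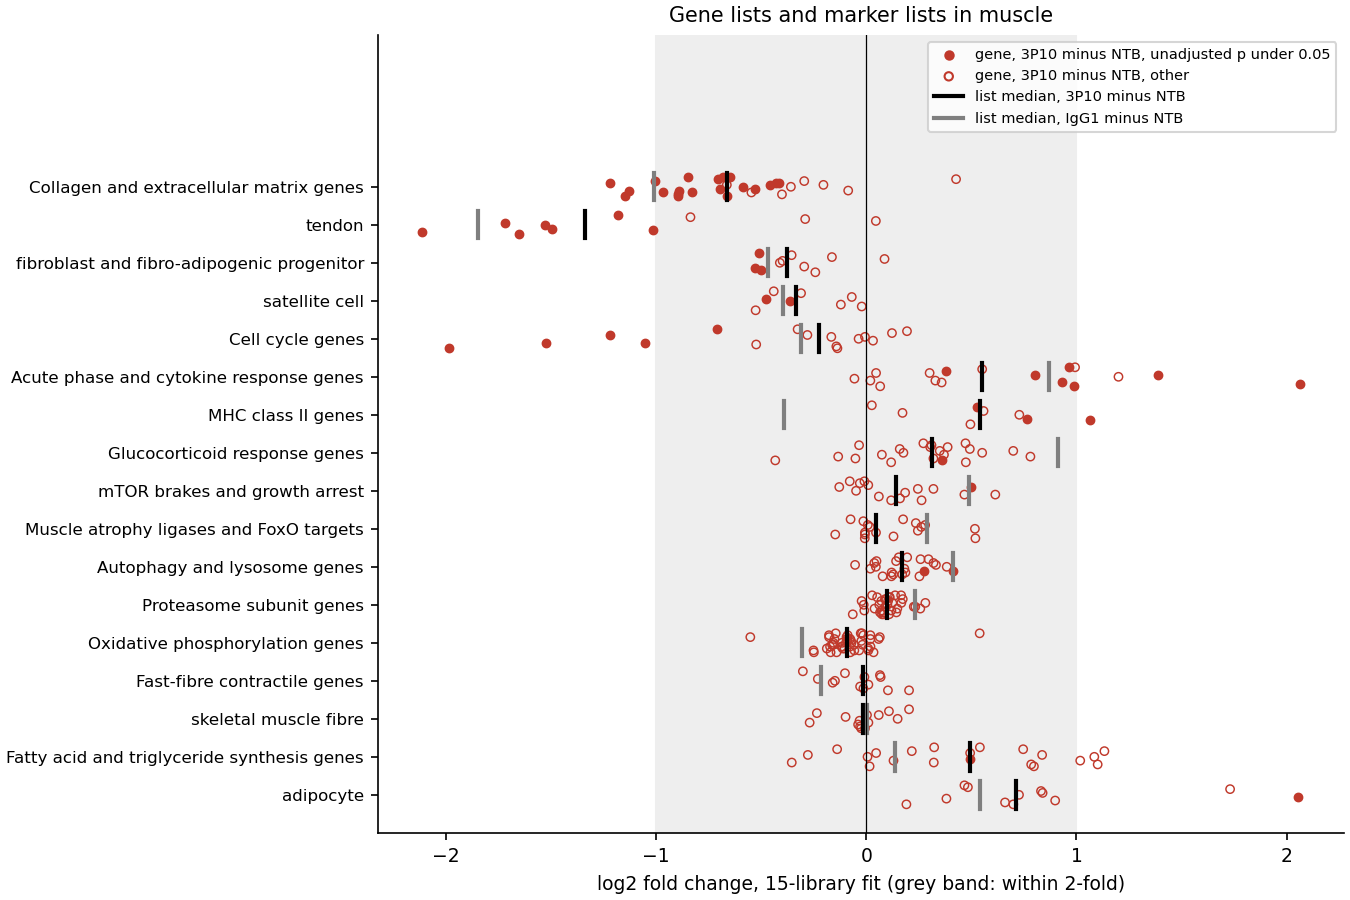
Log2 fold change of 3P10 minus NTB for every tested member of 17 gene lists and marker lists, filled where the unadjusted p is under 0.05, with the list median in black and the median of IgG1 minus NTB in grey; the grey band marks a difference of under 2-fold. Most matrix and tendon genes lie left of 0, with medians of -0.66 and -1.34, while the muscle fibre, proteasome and oxidative phosphorylation lists centre within 0.10 of 0.

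Fat-related lists stood above 0 without called members. All 12 adipocyte markers had positive estimates in 3P10 against NTB, with a median of 0.71 and 1, Cidea, higher at an unadjusted p under 0.05 (1.23% of all genes). With the term 4 were higher at that threshold, beside 395 of all 13283 genes. In the 10-library fit with the term 4 were higher, beside 657 of 13051. Without the term 1 of the 12 markers (8.33%) was bounded within 2-fold, beside 83.2% of all genes. Their sums were 2315 to 3632 CPM in 3P10, 2569 to 5834 CPM in IgG1 and 1664 to 3026 CPM in NTB, and none was at 0, so fat-cell transcripts were present in muscle pieces of all groups. Ucp1, the uncoupling protein of brown fat, stood at 2.64, 84.5, 1.99, 57.2 and 35.7 CPM in 3P10, at 2.30, 2.24, 1.33, 6.62 and 9.72 CPM in IgG1, and at 9.30, 1.61, 19.9, 1.68 and 22.6 CPM in NTB. In 3 of the 5 3P10 libraries it was above every other library and in the other 2 it was low. The fatty acid and triglyceride synthesis genes, 21 tested, had a median of 0.49 with 1 higher at an unadjusted p under 0.05. Of these 10 (47.6%) were bounded within 2-fold. The part of fat in the muscle pieces in these 2 lists was not tested.

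The genes that fell most in IgG1 muscle were chosen for that fall against the same NTB libraries, so their values are a description. Nmrk2, a kinase of muscle that makes the NAD precursor nicotinamide mononucleotide, stood at 13.3, 11.2, 15.8, 11.8 and 10.8 CPM in 3P10, at 5.59, 5.52, 3.47, 4.87 and 1.62 CPM in IgG1, and at 28.6, 18.96, 22.8, 23.9 and 12.9 CPM in NTB. The 3P10 libraries lay above all IgG1 libraries and reached the lowest NTB library. 3P10 against NTB gave a log2 fold change of -0.77 (-1.34 to -0.20, edgeR adjusted p = 0.830), that of IgG1 against NTB was -2.35 (adjusted p = 0.00052), and that of 3P10 against IgG1 was 1.58 (adjusted p = 0.0294).

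Rsph1, a protein of motile cilia, gave -1.16 (-1.83 to -0.49) in 3P10 against NTB and fell by 3.01 in IgG1, and 3P10 against IgG1 gave 1.85 (adjusted p = 0.0451). Mfap4, a microfibril-associated glycoprotein, gave -1.30 (-2.07 to -0.52) in 3P10 and fell by 2.94 in IgG1. Aplnr, the receptor of the peptide apelin, gave -0.70 (-1.44 to 0.03) in 3P10 and fell by 2.31 in IgG1. For Mfap4 and Aplnr the difference between 3P10 and IgG1 did not pass without the term (adjusted p = 0.0887 and 0.0807) and passed with it (adjusted p = 0.0199 and 0.00627).

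Ret, which encodes the kinase that GFRAL signals through, stood at 3.87, 3.53, 5.61, 3.01 and 3.88 CPM in 3P10, at 3.41, 0.863, 2.31, 0.889 and 2.48 CPM in IgG1, and at 7.04, 9.50, 5.06, 12.2 and 6.07 CPM in NTB. The 3P10 and NTB libraries overlapped through 3P10 replicate 3 and NTB replicate 3. Set against NTB, 3P10 gave a log2 fold change of -1.005 (-1.72 to -0.29, edgeR adjusted p = 0.782, with the term 0.152), and in IgG1 against NTB it fell by 2.001 (adjusted p = 0.00452). Among the other genes of this receptor family, Gfra1, Gfra2 and Gfra3 encode co-receptors of related ligands, and none differed from NTB in 3P10 at an unadjusted p under 0.05, with estimates of -0.20, -0.45 and -0.03.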

How the data were processed

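Whole-transcriptome libraries of gastrocnemius muscle were analysed from the authors' deposited table of counts, which gives whole reads for each of 24391 gene symbols, with white fat in the same table and not used here. Per the submitters' processing notes, Trim Galore, STAR 2.6.0a, featureCounts 1.6.2, edgeR 3.22.3 and the mouse build mm9 were used; the strand setting and the annotation of the counting are not given in the sources used here, so overlapping and antisense genes cannot be told apart.

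Samples were grouped by their labels. Counts of the 15 muscle libraries were fitted with edgeR 4.0.16 in R 4.3.3 (limma 3.58.1), with TMM factors, filterByExpr (minimum count 10, minimum total 15) and the quasi-likelihood F test, and p-values of the contrast of 3P10 and NTB were adjusted over every tested gene by the Benjamini-Hochberg method, with calls under 0.05. Residual degrees of freedom were 12, or 11 with the 2-level term for library number 14 or higher, and 7 for the 10 3P10 and NTB libraries with the term. The 95% interval is the log2 fold change plus and minus the t quantile times its SE, and a gene was bounded where the interval lay within -1 and 1. CPM used TMM-scaled library totals. Floors of 3 counts cover counting error only. The scripts were tested on simulated data.

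Samples with the same replicate number were not paired by the labels. No 2 libraries of a group held identical counts. Alternatives were DESeq2 1.42.0, RLE factors, no low-count filter, at least 1 CPM in 5 libraries, a minimum fold of 1.2, a replicate block, the 3P10 and NTB libraries alone, the libraries numbered 14 or higher left out, and each library left out in turn.

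The comparison, gene lists, library-number term and tests were chosen with earlier results of these data known. Named genes were the 10 smallest adjusted p in 3P10 against NTB, list members called in the 15-library fits, the 8 largest rises and falls called in IgG1 against NTB at a mean of at least 1 CPM, genes called with the term alone, and a panel (Gdf15, Gfral, Ret, Fbxo32, Trim63, Mstn, Cdkn1a, Fkbp5, Mt1, Mt2, Ddit4 and Pdk4). A further part of the rule, called genes of the 15-library fit, named none. Other genes named as examples of a list were picked after their values were seen.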

Additional observations from a re-analysis of the deposited data

Results flagged for a closer look

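Of 74 groups of 5 libraries, the 3P10 and the NTB group of 37 named genes, 8 held a library that stood apart by Dixon's test at 95%, where chance gives about 1 in 20. NTB replicate 3, numbered 16, accounts for 4 of them. It was low for Stat3, at 40.5 CPM with the other NTB libraries at 61.9 to 63.5 CPM. It was high for Cebpd, at 31.04 CPM with the others at 7.86 to 9.87 CPM, for Mt2, at 15.9 CPM with the others at 2.28 to 5.84 CPM, and for Rsph1, at 5.30 CPM with the others at 1.82 to 2.65 CPM. 3P10 replicate 1 was high for Col11a1, at 0.968 CPM with the other 3P10 libraries at 0.285 to 0.451 CPM, for Aplnr, at 13.4 CPM with the others at 8.74 to 9.74 CPM, and for 8430408G22Rik, at 25.1 CPM with the others at 5.56 to 10.1 CPM. NTB replicate 4 was high for Kera, at 5.56 CPM with the others at 3.00 to 3.53 CPM.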

How the results depend on the processing

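In the 15-library fit of 3P10 against NTB, 0 genes were called under edgeR with RLE factors, with no low-count filter, with at least 1 CPM in 5 libraries, with a minimum fold of 1.2, without the 4 libraries numbered 14 or higher, with the 3P10 and NTB libraries alone and without each library in turn. The counts that differed were 15 by DESeq2, 5 with the library-number term, 88 with the term in 10 libraries and 65 in the 8 low-numbered libraries of the 2 groups. From its 5 calls the fit with the term went to 0 without the term, with at least 1 CPM in 5 libraries or with a minimum fold of 1.2, to 17 with no low-count filter, to 131 by DESeq2 and to 88 in 10 libraries, and leaving out single libraries gave 0 to 61. From its 88 calls the 10-library fit went to 0 without the term, to 5 in 15 libraries, to 339 by DESeq2 and to 9 with a minimum fold of 1.2, and leaving out single libraries gave 26 to 122. The cause of these shifts was not tested. The number of genes bounded within 2-fold kept within 1.5 times of 11054 under each alternative.

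The fit with a replicate block called 0 genes, and 0 with the block and the term, where the fit with the term alone called 5. Same-numbered 3P10 and NTB libraries had correlations of 0.15, -0.47, -0.52, 0.15 and 0.26 in their deviations from the group means. Libraries of different replicate number, 3P10 replicate 2 and NTB replicate 3, had 0.80, so these values alone cannot decide a pairing. With the library-number term the same-numbered libraries gave -0.16, 0.058, -0.071, -0.078 and 0.22. These values gave no sign of a pairing by replicate number.

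Of the named genes, 3 changed sign, with estimates of -0.03 for Mstn, 0.30 for Cebpd and 0.12 for Ddit4 in the 15-library fit without the term. Mstn gave 0.0085 without the 4 libraries numbered 14 or higher and 0.00052 in the 8 low-numbered libraries, and -0.10 to 0.085 when single libraries were left out. Cebpd gave -0.0046 to 0.90 and Ddit4 -0.13 to 0.29 when single libraries were left out. Genes under the floors of 0.0838 to 0.143 CPM cannot be resolved at this depth. The fit with the 8 low-numbered libraries and the alternatives of the fits with the term were chosen after seeing the data.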
